A study of Rattus norvegicus with 15 samples.

Results

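The Egr family comprises Egr1, Egr2, Egr3 and Egr4, zinc finger transcription factors whose genes are among the first to be transcribed when a neuron is activated. The members were taken as the RefSeq transcript records that carry these 4 gene symbols, and each symbol had 1 record, so that 4 of the 18278 records in each count table were followed. Their RNA was counted by sequencing in the brains of rats that had received vagus nerve stimulation (VNS) from an implanted device, for 30 min a day over 4 days, or that bore a sham device as controls. Brains were taken directly after the stimulation of day 4. The hippocampus was sampled in 4 VNS and 3 control libraries, prepared from total RNA depleted of ribosomal RNA of rats that had also done a novelty preference task of 10 min on days 2 to 4. The cortex was sampled in 4 VNS and 4 control libraries of poly(A)-selected RNA. The labels state no strain, sex or age and do not say which libraries share an animal, so the p-values below measure the spread between these libraries.

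Egr proteins bind a GC-rich site in DNA through the zinc fingers that the family shares. In neurons, calcium entry and MAP kinase signalling activate serum response factor (SRF) with its ETS-domain partners and the cyclic AMP response element binding protein CREB, and these factors switch on Egr transcription within minutes. Egr1 (also NGFI-A) is needed in mice for the late phase of hippocampal long-term potentiation and for long-term memory. Egr2 (Krox20) is known for hindbrain segmentation and for Schwann cell myelination, Egr3 for muscle spindle development and activity-regulated transcription in neurons, and Egr4 (NGFI-C) as a further activity-regulated member. The co-repressors Nab1 and Nab2 bind Egr1, Egr2 and Egr3 and limit their activity.

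Because SRF and CREB are the textbook inputs to these genes, the promoters were read for their sites. RefSeq promoter windows of the rat assembly GRCr8 were matched by symbol for Egr1, Egr2 and Egr4, and the 250 bases before each start are printed here 5′ to 3′ in the direction of transcription. Capitals mark the CArG box, which SRF binds, and the cyclic AMP half-site TGACG read on either strand. The windows are chr18:26736828-26737077 (plus strand) for Egr1, chr20:21054442-21054691 (minus strand) for Egr2 and chr4:119607818-119608067 (minus strand) for Egr4.
Egr1: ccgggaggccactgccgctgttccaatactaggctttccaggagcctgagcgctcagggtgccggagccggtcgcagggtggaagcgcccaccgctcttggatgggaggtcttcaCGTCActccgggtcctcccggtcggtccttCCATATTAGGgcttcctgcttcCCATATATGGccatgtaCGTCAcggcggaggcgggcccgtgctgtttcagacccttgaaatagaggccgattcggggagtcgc
Egr2: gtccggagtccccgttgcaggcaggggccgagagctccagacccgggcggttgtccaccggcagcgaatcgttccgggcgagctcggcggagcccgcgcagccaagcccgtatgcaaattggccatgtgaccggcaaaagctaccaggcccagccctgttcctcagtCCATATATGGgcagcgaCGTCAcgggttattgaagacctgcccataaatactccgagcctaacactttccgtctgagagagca
Egr4: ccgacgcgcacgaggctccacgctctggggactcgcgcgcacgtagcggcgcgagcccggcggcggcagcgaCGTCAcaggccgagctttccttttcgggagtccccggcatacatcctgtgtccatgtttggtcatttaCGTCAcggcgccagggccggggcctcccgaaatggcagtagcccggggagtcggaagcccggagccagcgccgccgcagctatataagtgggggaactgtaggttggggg

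The Egr1 window held 2 CArG boxes, from 105 to 96 and from 83 to 74 bases before the start, and the Egr2 window held 1, from 83 to 74 bases before the start. The boxes nearest the start of Egr1 and of Egr2 had the same letters and the same distance from the start. In both genes a half-site followed from 66 to 62 bases before the start. Egr1 had another half-site from 135 to 131 bases before the start, and Egr4 had half-sites from 178 to 174 and from 110 to 106. Of 33469 promoter windows of this length, 1.497% held a CArG box, 0.0209% held 2 or more, and 18.2% held the half-site. The half-site was added to the search after the promoters had been read, so its share beside the members is a description and was not tested. The full cyclic AMP element TGACGTCA (1.59% of all windows), the Egr site GCGNGGGCG (4.29%) and the TATA box letters TATAAA (12.9%) were not in the windows of the 3 members. Only these exact letters were sought, so the similar TATATAAG near the end of the Egr4 window was not counted, and the absence of TATAAA does not show that a TATA box is lacking. Both strands were searched for each motif, a palindromic match was counted once, and no marked motifs overlapped. Among 21 other immediate early genes with a promoter window, 2 held a CArG box and 10 held the half-site. Of 13 promoter windows of 8 reported Egr target genes, 4 held the Egr site, in Ache, Gabra4, Syn1 and Syn2. A match describes the letters of a window and is not evidence of binding.

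Hippocampal libraries held 16728486 to 51463555 counts, of which ribosomal RNA records took 9.34%, 31.6%, 73.1% and 31.3% in VNS libraries 1 to 4 and 8.85%, 7.11% and 19.3% in control libraries 1 to 3. Control libraries 1 and 2 stood apart in the markers of forebrain excitatory neurons, a cell class in which the Egr genes are activity-regulated. The summed level of 9 such markers was 5359, 3444, 4828 and 4413 CPM in VNS libraries 1 to 4, and 730.4, 288.3 and 4126 CPM in control libraries 1 to 3. CPM stands here for counts scaled to a common library size with the TMM method. The summed thalamic markers ran the other way, at 282.1 to 449.0 CPM over the VNS libraries and at 2107, 771.6 and 339.6 CPM in control libraries 1 to 3. In control library 2 this sum was mostly Slc17a6 (347.4 CPM) and Cplx1 (396.7 CPM). These and Lef1 (14.0 CPM) lay above the VNS range there. Prkcd, at 11.8 CPM, lay within its VNS range of 6.19 to 41.2 CPM, and Gbx2, at 1.70 CPM, below its VNS maximum of 1.99 CPM. The part of tissue composition in the results was not tested, and in bulk tissue fewer cells of a type and less RNA per cell cannot be told apart. The differences of the Egr genes are therefore given with and without these control libraries.

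In the hippocampus, no Egr gene passed the test between VNS and control rats. Egr1, Egr3 and Egr4 had higher averages in the VNS group and Egr2 a lower one, and for each member the highest control exceeded the lowest by a larger factor than the VNS libraries did among themselves (for Egr1 to Egr4, 2.62, 6.14, 2.11 and 1.83-fold over the VNS libraries and 6.27, 137.2, 26.6 and 22.8-fold over the controls). Egr1 measured 27.2, 25.7, 67.3 and 57.6 CPM in VNS libraries 1 to 4, against 6.96, 9.60 and 43.7 CPM in control libraries 1 to 3. All VNS libraries lay above control libraries 1 and 2, while control library 3 lay inside the VNS range, so the groups overlapped. The Egr1 group means were 44.4 ± 21.2 CPM after VNS (SD, n = 4) and 20.1 ± 20.5 CPM in controls (SD, n = 3). The log2 fold change was 1.14 (SE 0.67, adjusted p = 0.45, edgeR quasi-likelihood test).

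Egr3 showed the same arrangement with a wider gap. It measured 25.2, 22.2, 46.8 and 32.2 CPM in VNS libraries 1 to 4, against 1.67, 1.01 and 27.0 CPM in control libraries 1 to 3. The lowest VNS library stood 13.3-fold above the higher of control libraries 1 and 2, and control library 3 stood within the VNS range. The Egr3 log2 fold change was 1.67 (SE 1.02, adjusted p = 0.46, edgeR quasi-likelihood test), with means of 31.6 ± 10.9 CPM after VNS (SD, n = 4) and 9.88 ± 14.8 CPM in controls (SD, n = 3).

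Egr4 measured 12.2, 14.4, 14.2 and 22.3 CPM in VNS libraries 1 to 4, against 2.44, 1.16 and 26.5 CPM in control libraries 1 to 3. Here control library 3 was the highest of all 7 libraries, 1.19-fold above the highest VNS library, and control libraries 1 and 2 were the lowest. The Egr4 means were 15.8 ± 4.46 CPM after VNS (SD, n = 4) and 10.02 ± 14.3 CPM in controls (SD, n = 3). The log2 fold change was 0.66 (SE 0.91, adjusted p = 0.75, edgeR quasi-likelihood test).

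Egr2 was the scarcest member and the one in which control library 3 stood out most. It measured 0.904, 2.62, 3.25 and 5.55 CPM in VNS libraries 1 to 4, against 0.733, 0.109 and 14.9 CPM in control libraries 1 to 3. These values rest on 61, 54, 16 and 224 counts in the VNS libraries and on 36, 6 and 720 counts in the controls. The 6 counts of control library 2 have an exact 95% Poisson interval of 2.20 to 13.1 counts, and the 16 of VNS library 3 one of 9.15 to 26.0, which cover counting error only. Control library 3 was 2.69-fold above the highest VNS library and 4.84-fold above the VNS mean. The Egr2 log2 fold change was -0.78 (SE 1.27, adjusted p = 0.79, edgeR quasi-likelihood test), with means of 3.08 ± 1.92 CPM after VNS (SD, n = 4) and 5.25 ± 8.37 CPM in controls (SD, n = 3).

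**Figure D1:**
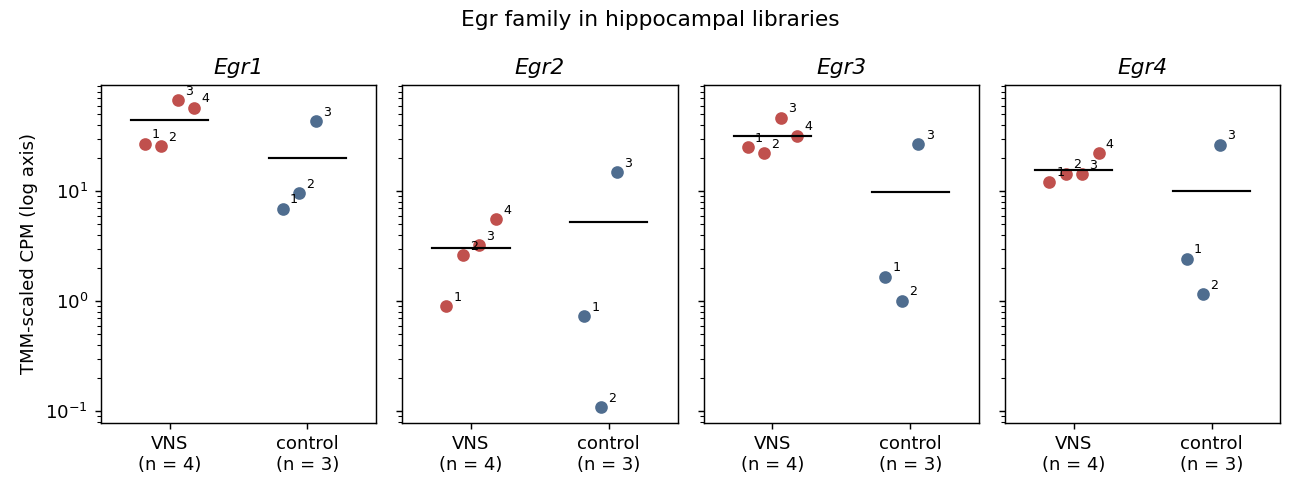
TMM-scaled CPM of the 4 Egr genes in each hippocampal library on a log axis. Points are libraries with their number, bars are arithmetic means of 4 VNS and 3 control libraries. Control libraries 1 and 2 lie lowest in Egr1, Egr2, Egr3 and Egr4, and control library 3 lies within the VNS range for Egr1 and Egr3 and above it for Egr2 and Egr4.

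Of the 4 members tested, 0 passed with edgeR, DESeq2 or limma-voom, and 0 had an unadjusted p under 0.05 with edgeR. For Egr4, DESeq2 gave no p, adjusted or not, so Egr4 was not tested with that tool. With limma-voom, Egr3 had a log2 fold change of 3.03 (unadjusted p = 0.0094, adjusted p = 0.33). In that fit 1883 of 12728 records had an unadjusted p under 0.05. Of the 12728 records in the hippocampal edgeR fit, 0% passed, and an unadjusted p under 0.05 was found for 12.1%. VNS and control libraries overlapped for every member, whereas 9.28% of all records did not overlap. Of the members 3 of 4 had a log2 fold change above 0, as had 49.2% of all records. The median of the members was 0.90, against -0.0068 over all records tested.

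The size of these differences, and for Egr1, Egr2 and Egr4 their sign, depended on which control libraries were used. Without control library 3, the controls were the 2 libraries low in forebrain markers, and 3 of 4 members passed, all higher after VNS. Of all records in that fit, 10.6% passed in either direction, 6.24% passed with higher values after VNS, and 26.8% had an unadjusted p under 0.05, as had 4 of 4 members. The log2 fold changes were 2.41 for Egr1 (SE 0.46, adjusted p = 0.015, edgeR quasi-likelihood test), 4.54 for Egr3 (SE 0.41, adjusted p = 0.00096) and 3.14 for Egr4 (SE 0.40, adjusted p = 0.0036). Egr2 had a value of 2.87 and did not pass (SE 0.93, adjusted p = 0.090).

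Without control libraries 1 and 2, a single control library was left and was assumed to vary like the VNS libraries. Against it no member passed (edgeR adjusted p = 0.99995 for each of the 4), and the differences of Egr1 and Egr3 shrank to log2 values of -0.0077 (SE 0.48) and 0.19 (SE 0.35). Egr2 and Egr4 were lower after VNS, at -2.30 (SE 0.64, unadjusted p = 0.0059, edgeR) and -0.75 (SE 0.31, unadjusted p = 0.039, edgeR). Thus 2 of 4 members had an unadjusted p under 0.05, both lower after VNS, where 0.801% of all records had one in either direction and 0.343% had one with lower values. Of the members 1 of 4 had a value above 0, against 51.4% of all records. This comparison rests on the RNA of 1 sham rat library.

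**Figure D2:**
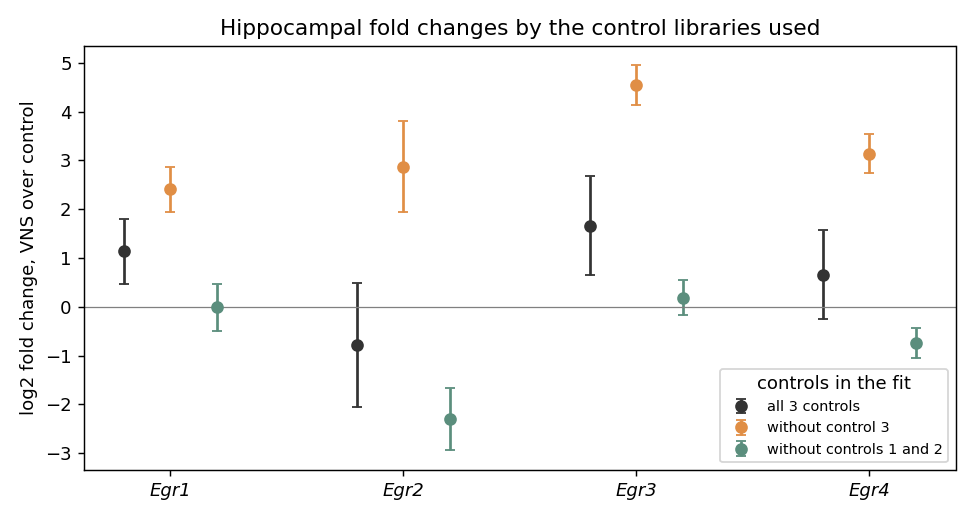
Log2 fold change of VNS over control in the hippocampus for each Egr gene, with the SE of the fit as bars, for 3 choices of control libraries. With all 3 controls the values were 1.14, -0.78, 1.67 and 0.66 for Egr1 to Egr4, and they moved up without control library 3 and down without control libraries 1 and 2.

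The levels of the members relative to each other were compared within a library, where the library size cancels. Levels of different genes are given per kilobase of record, since the records are 1527 bases long for Egr1, 2963 for Egr2, 1164 for Egr3 and 2148 for Egr4. In VNS hippocampus, Egr1 averaged 29.1 ± 13.9, Egr3 27.1 ± 9.40, Egr4 7.35 ± 2.08 and Egr2 1.04 ± 0.648 CPM per kilobase (SD, n = 4). In control hippocampus these levels were 13.1 ± 13.4, 8.49 ± 12.7, 4.67 ± 6.64 and 1.77 ± 2.83 CPM per kilobase (SD, n = 3). Egr1 and Egr3 did not differ beyond their spread in VNS libraries, while Egr4 lay below both and Egr2 below Egr4 in all 7 libraries. The order of the upper pair was Egr3 above Egr1 in VNS libraries 1 and 2, and Egr1 above Egr3 in the other 5 libraries.

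As a share of the summed counts per kilobase of the family, Egr1 made up 39.2%, 38.7%, 47.9% and 48.6% in VNS libraries 1 to 4, against 61.8%, 81.3% and 41.4% in control libraries 1 to 3. Egr3 made up 47.7%, 43.8%, 43.7% and 35.6% in the VNS libraries, against 19.4%, 11.3% and 33.5% in the controls. The share of Egr3 was larger in every VNS library than in any control and was not tested, with VNS library 4 and control library 3 close together. Egr4 made up 7.20% to 15.4% in VNS libraries and 6.98% to 17.8% in controls. Egr2 made up 0.671% to 2.41% in VNS libraries and 0.474% to 7.28% in controls, with the highest share in control library 3.

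**Figure D3:**
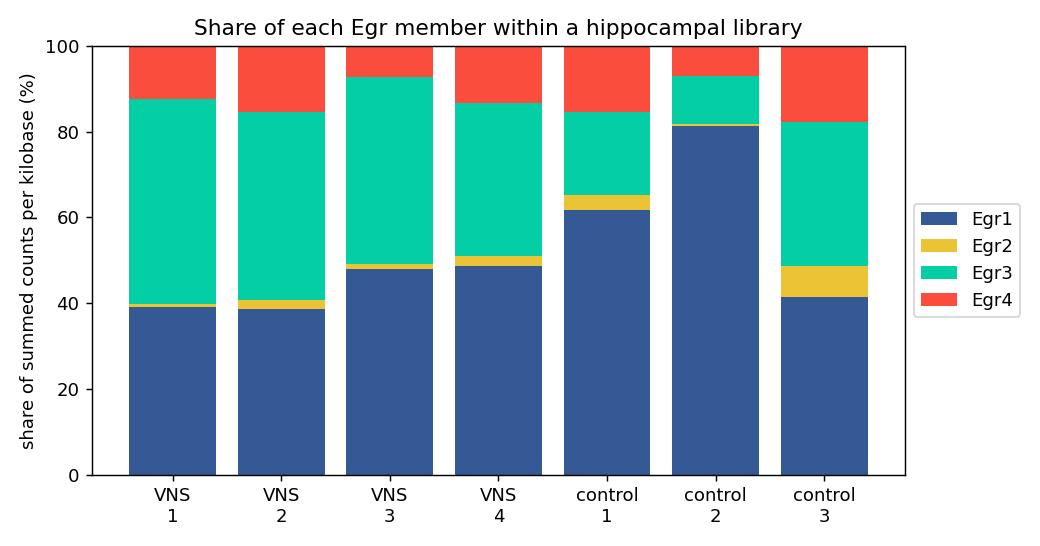
Share of each Egr gene in the family's summed counts per kilobase within each hippocampal library, in percent. Egr1 takes 38.7% to 48.6% in VNS libraries and 81.3% in control library 2, and the band of Egr2 is widest in control library 3, at 7.28%.

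Among the ratios between pairs of members, that of Egr4 to Egr3 was without overlap between the groups. The log2 ratio of Egr4 to Egr3 counts per kilobase was -1.93, -1.50, -2.59 and -1.41 in VNS libraries 1 to 4, against -0.34, -0.69 and -0.91 in control libraries 1 to 3. All 4 VNS libraries lay below all 3 controls, control library 3 included. The mean was -1.86 ± 0.54 after VNS (SD, n = 4) and -0.65 ± 0.29 in controls (SD, n = 3), a difference of -1.21 (two-sided exact permutation test, p = 0.0571). That is the smallest p that 4 libraries against 3 can give, so this design cannot reach the threshold of 0.05. Over the 6 pairs of members compared, the adjusted p was 0.343 (Benjamini-Hochberg, exact permutation test). Against control library 3 alone the difference was -0.95, a value with no test. Leaving out each library in turn gave differences of -1.36 to -0.97.

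The other 5 ratios overlapped between the groups. The ratio of Egr3 to Egr1 had a log2 difference of 1.57 (exact permutation p = 0.114) and that of Egr3 to Egr2 one of 1.83 (exact permutation p = 0.171), with an adjusted p of 0.343 for both. The ratios of Egr4 to Egr1, Egr4 to Egr2 and Egr2 to Egr1 had log2 differences of 0.36, 0.62 and -0.26 (exact permutation p = 0.571, 0.457 and 0.857, adjusted p = 0.686, 0.686 and 0.857). For the ratio of Egr2 to Egr1, the VNS libraries lay at log2 values of -5.86 to -4.24, between control library 3, the highest of 7 at -2.51, and control library 2, the lowest at -7.31.

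**Figure D4:**
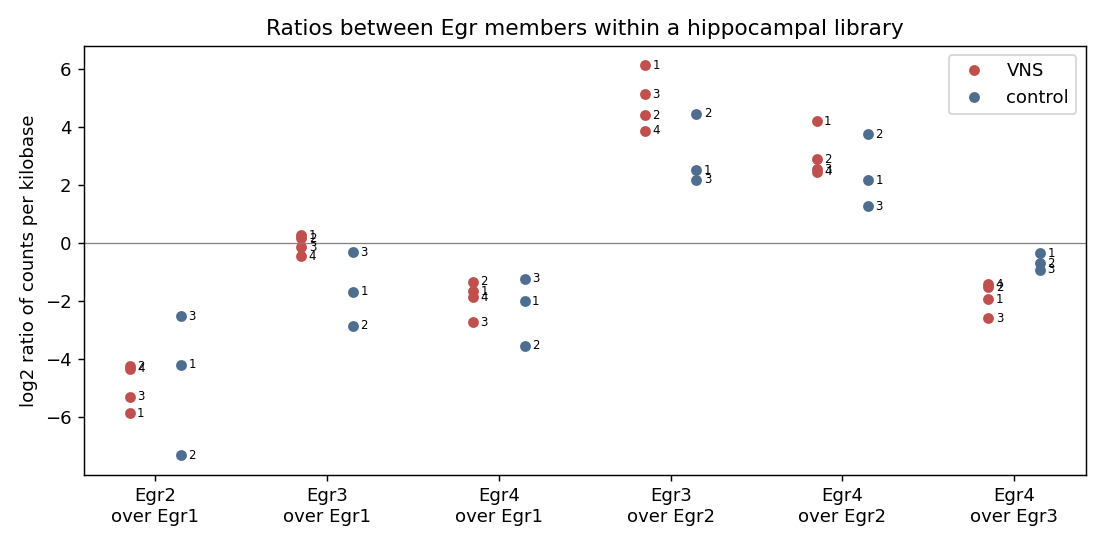
Log2 ratio of counts per kilobase for the 6 pairs of Egr genes within each hippocampal library, VNS left of control, with library numbers. The ratio of Egr4 to Egr3 is the pair whose groups do not overlap, from -2.59 to -1.41 in VNS libraries and from -0.91 to -0.34 in controls.

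Relative to forebrain neuron markers, the members differed in how they were placed in control libraries 1 and 2. For each 1000 CPM of summed forebrain markers, Egr1 had 5.08, 7.46, 13.9 and 13.1 CPM in VNS libraries 1 to 4, against 9.53, 33.3 and 10.6 CPM in control libraries 1 to 3. On this scale control library 2 was the highest of all 7 for Egr1. That value rests on a small marker sum of 288.3 CPM, of which 64.9 CPM came from Bhlhe40. This marker was at 67.1 to 113.7 CPM in VNS libraries, so it fell little in control library 2. Egr3 had 4.71, 6.44, 9.68 and 7.29 CPM in the VNS libraries, against 2.29, 3.52 and 6.53 CPM in the controls, so that control libraries 1 and 2 were still the lowest. Egr4 had 2.27 to 5.05 CPM in VNS libraries and 3.35, 4.02 and 6.41 CPM in control libraries 1 to 3. Egr2 had 0.169 to 1.26 CPM in VNS libraries and 1.004, 0.377 and 3.61 CPM in control libraries 1 to 3. No test was made on these values, since the markers were examined because of the same libraries.

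**Figure D5:**
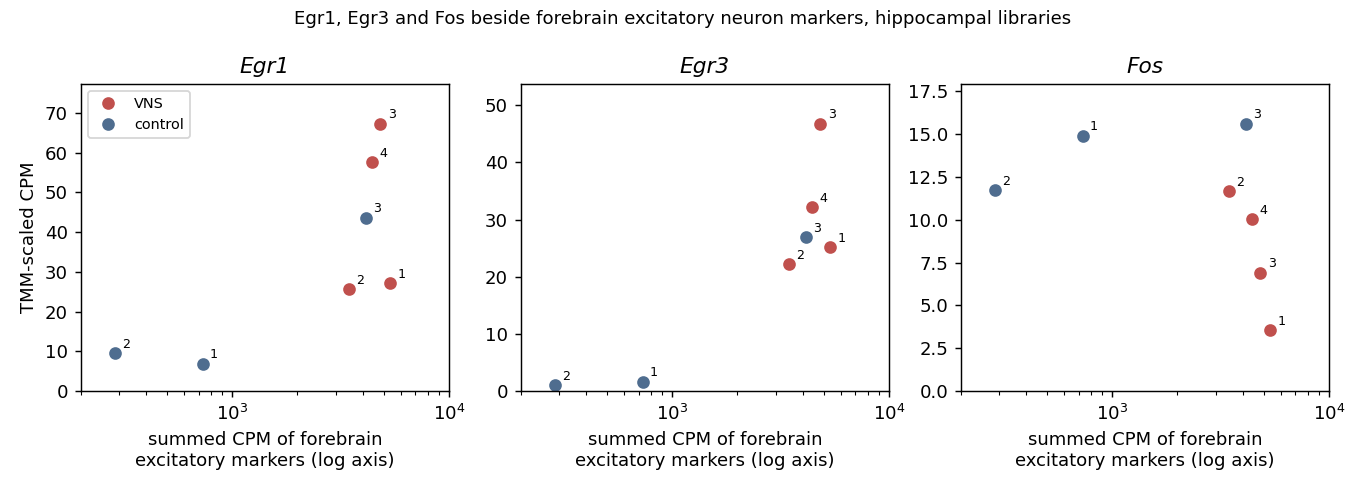
CPM of Egr1, Egr3 and Fos against the summed CPM of 9 forebrain excitatory neuron markers in each hippocampal library, marker sum on a log axis, numbers naming libraries. Control libraries 1 and 2, with marker sums of 730.4 and 288.3 CPM, are low in Egr1 and Egr3, while their values of Fos, 1 of 29 other immediate early genes, are 14.9 and 11.7 CPM and lie above those of the 4 VNS libraries.

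The genes whose profile over the 7 hippocampal libraries was most like each member were found among 12005 records by Pearson correlation of log2 CPM, which is given as a description without a test. The points share the 2 low control libraries, so the coefficient is also given over the other 5 libraries. For Egr1 the most alike were Nr2e1, a nuclear receptor of neural stem cells (r = 0.99, and 0.99 over 5 libraries), Pantr1, Mllt1, Tnrc18 and Kctd15 (r = 0.98 to 0.99, and 0.92 to 0.97 over 5 libraries). For Egr3 they were Kctd13, Ctxn1, Smpdl3b, Celf3 and Dnal1 (r = 0.995 to 0.999, and 0.88 to 0.99 over 5 libraries).

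Among the 5 genes most like Egr4 were Erf, an ETS-domain repressor regulated by MAP kinase, Tnfrsf19, Arc, which acts in synaptic plasticity, and Tbr1 (r = 0.99 for each). Arc was the closest of these over the 5 libraries, at r = 0.997. Tbr1, a transcription factor of cortical excitatory neurons, had 0.86 over the 5 libraries. For Egr2 the most alike were Dear, Inpp5d, a phosphatase of blood and microglial cells, Il17ra, Slc25a23 and Junb, an AP-1 subunit (r = 0.96 to 0.97, and 0.89 to 0.97 over 5 libraries). Between members, Egr2 and Egr4 had r = 0.91 over 7 libraries and 0.94 over 5. Egr1 and Egr3 had r = 0.94 over 7 and 0.90 over 5, whereas Egr3 and Egr4 had r = 0.96 over 7 and 0.0019 over 5. Over 7 and over 5 libraries, Egr1 and Egr2 had r = 0.78 and 0.50, Egr2 and Egr3 0.80 and 0.14, and Egr1 and Egr4 0.89 and 0.43. Ranked by r over 7 libraries among the 12005 records, a member stood between 35 (Egr4 for Egr2) and 1449 (Egr2 for Egr3) in likeness to another. Many records outside the family were therefore more like a member than its relatives were.

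Both co-repressor genes of the family were lowest in control libraries 1 and 2, as were 18.3% of all records tested. Nab2, itself a reported Egr target, measured 31.2, 34.9, 20.9 and 29.8 CPM in VNS libraries 1 to 4, against 8.80, 12.2 and 29.8 CPM in control libraries 1 to 3. It repeated the arrangement of Egr1, with control libraries 1 and 2 lowest and control library 3 inside the VNS range. Its log2 fold change was 0.79 (SE 0.40, adjusted p = 0.42, edgeR quasi-likelihood test). Nab1 was at 37.8 to 43.9 CPM in VNS libraries and at 35.5, 33.7 and 48.8 CPM in control libraries 1 to 3, a log2 difference of 0.07 (SE 0.16, adjusted p = 0.84, edgeR).

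Of 22 tested genes for signalling and factors upstream of Egr transcription, 0 passed with edgeR, DESeq2 or limma-voom. With edgeR 4 had an unadjusted p under 0.05, where 12.1% of all records tested had one. The median log2 fold change of the 22 was 0.31. Of them 15 were higher and 7 lower, where 49.2% of all records were higher. The 2 with the smallest p were Mef2d, an activity-dependent transcription factor (0.62, SE 0.20, adjusted p = 0.40, edgeR), and Crtc1, a CREB co-activator (1.03, SE 0.35, adjusted p = 0.40, edgeR). Mef2d was at 76.6 to 102.5 CPM in VNS libraries and at 47.4, 45.004 and 72.2 CPM in control libraries 1 to 3, without overlap. Srf, named here because its site was sought in the promoters, averaged 61.8 ± 3.56 CPM after VNS (SD, n = 4) and 40.2 ± 23.2 CPM in controls (SD, n = 3), a log2 difference of 0.62 (SE 0.32, adjusted p = 0.42, edgeR).

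Among 14 tested records of 11 reported Egr target genes in neurons, 0 passed with edgeR, DESeq2 or limma-voom. With edgeR 3 had an unadjusted p under 0.05, where 12.1% of all records tested had one. Of the 14, 10 were higher and 4 lower (median log2 fold change 0.42), where 49.2% of all records were higher. The target records with the smallest p went in opposite directions. Ache, the acetylcholinesterase gene, had a value of -0.91 (SE 0.34, adjusted p = 0.40, edgeR), at 48.6 to 56.8 CPM in VNS libraries and 129.9, 130.5 and 43.1 CPM in control libraries 1 to 3. Syn2, a synaptic vesicle protein gene, had values of 0.91 (SE 0.35) and 0.84 (SE 0.36) in its 2 records (adjusted p = 0.40 for both, edgeR). In 11 tested zinc finger factors that bind GC-rich sites, 0 passed with any of the 3 tools (median 0.26, 6 higher and 5 lower). An unadjusted p under 0.05 was found for 1 of the 11 with edgeR, against 12.1% of all records. Klf13 was at 0.84 (SE 0.36) and Maz at 0.48 (SE 0.21, adjusted p = 0.40 for both, edgeR).

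The other immediate early genes were divided in direction. Of 29 tested, 17 were higher and 12 lower (median log2 fold change 0.09), and 0 passed with edgeR, DESeq2 or limma-voom. An unadjusted p under 0.05 was found for 1 of the 29 with edgeR, against 12.1% of all records. Fos, an AP-1 subunit, measured 3.54, 11.7, 6.91 and 10.03 CPM in VNS libraries 1 to 4, against 14.9, 11.7 and 15.6 CPM in control libraries 1 to 3. It was not low in control libraries 1 and 2, and VNS library 2 lay just under control library 2, so the groups did not overlap. Its log2 fold change was -0.81 (SE 0.37, adjusted p = 0.40, edgeR). Trib1, a pseudokinase gene, had a value of -0.72 (SE 0.29, adjusted p = 0.40, edgeR). Other members of the list shared the arrangement of the Egr genes. In 14 of the 29, control libraries 1 and 2 both lay below the other 5 libraries, as they did in 4 of 4 Egr genes and in 18.3% of all records tested. Nr4a3, an orphan nuclear receptor gene named after its values were seen, was at 56.4 to 93.9 CPM in VNS libraries and at 5.72, 2.75 and 73.8 CPM in control libraries 1 to 3. Without control library 3, 11 of the 29 passed, all higher after VNS, against 10.6% of all records in either direction. Without control libraries 1 and 2 the median of the list was -0.35, and that of the Egr family -0.38.

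Egr2 is also expressed by Schwann cells and in the developing hindbrain, and markers of those sources were looked at beside it. Of 9 tested Schwann cell myelin genes, 2 were higher and 7 lower after VNS (median log2 fold change -0.46), and 0 passed with any of the 3 tools. An unadjusted p under 0.05 was found for 1 of the 9 with edgeR, against 12.1% of all records. Gjb1 had a value of -1.20 (SE 0.43) and Cnp one of -0.71 (SE 0.33, adjusted p = 0.40 for both, edgeR). The summed level of this list was 525.1 to 1261 CPM in VNS libraries and 1501, 1158 and 956.9 CPM in control libraries 1 to 3. Of 4 hindbrain genes with a record 2 were tested, and 0 passed with any of the 3 tools. Epha4, an ephrin receptor gene, was at 0.51 (SE 0.37, adjusted p = 0.53, edgeR).

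Markers of other cell types gave these values beside the members. Of 9 tested forebrain excitatory neuron markers 8 were higher (median 1.37), and those with the smallest p were Nrgn at 1.83 (SE 0.86) and Camk2a at 1.32 (SE 0.79). Of 5 tested thalamic markers all were lower (median -2.24), and those with the smallest p were Slc17a6 at -2.86 (SE 0.87) and Lef1 at -2.08 (SE 0.73). All 10 tested oligodendrocyte markers were lower (median -0.76), with the smallest p for Ugt8 at -0.97 and Enpp2 at -1.03. Medians were 0.21 for 6 tested records of astrocyte markers, 0.05 for 8 of microglia, -0.19 for 9 of endothelial and mural cells, -1.14 for 6 of choroid plexus, 0.10 for 2 of lymphocytes and -0.66 for 3 of erythrocytes. Without control libraries 1 and 2 the medians were 0.06 for forebrain, 0.52 for thalamic and -0.28 for oligodendrocyte markers. With all 7 libraries no marker record passed with edgeR, DESeq2 or limma-voom. Without control library 3, 3 of 4 Egr genes passed with edgeR. In that fit 7 of 9 forebrain markers also passed, all higher after VNS, as did 1 astrocyte record, of Slc1a2, also higher. Of all records in that fit, 10.6% passed in either direction and 6.24% passed with higher values. The 2 thalamic, 2 oligodendrocyte and 2 choroid plexus marker records that passed were all lower. The part of these markers in the Egr values was not tested. Microglial markers summed to 206.9 to 240.6 CPM over the VNS libraries and to 197.4 to 258.4 CPM over the controls.

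In the cortex, the values of the Egr records cannot be read as levels of these genes. Cortex libraries held 329130 to 435296 counts, and the file header gives a strand option that counts reads on the strand of the record, whereas the stranded TruSeq kit named in the labels gives first reads on the opposite strand. Records with an exon overlapping a record on the other strand were 3.79% of all records and held 35.5% of cortex counts, against 9.58% of hippocampal counts. Nab2 was at 716.6 to 1387 CPM in cortex and at 8.80 to 34.9 CPM in hippocampus, and its record (chromosome 7, 71135886 to 71142278, minus strand, rn5) lies tail to tail with that of Stat6 on the plus strand, which ends at 71135848.

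None of the 4 Egr records contains an exon of another record. They lie in rn5 on chromosome 18 from 27369518 to 27371716 (Egr1, plus strand), chromosome 20 from 24551935 to 24556227 (Egr2, minus), chromosome 15 from 55482823 to 55485279 (Egr3, plus) and chromosome 4 from 181870041 to 181872503 (Egr4, minus), each with 2 exons. Egr4 had 44, 59, 75 and 69 cortex counts in VNS libraries 1 to 4, against 57, 80, 53 and 84 in control libraries 1 to 4. Egr1 had 21, 4, 15 and 28 counts in the VNS libraries, against 12, 28, 19 and 9 in the controls. The groups overlapped for both records, where 2.29% of all cortex records tested did not overlap. Egr3 had at most 9 counts in a library and Egr2 at most 2, so neither was tested in cortex.

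The cortex log2 fold change was -0.17 for Egr4 (SE 0.24) and 0.0086 for Egr1 (SE 0.49, adjusted p = 0.9998 for both, edgeR quasi-likelihood test). Of the 2 members tested, 0 passed with edgeR, DESeq2 or limma-voom and 0 had an unadjusted p under 0.05, where 2.39% of 3884 records had one and 0.0257% passed. In CPM, Egr4 averaged 175.9 ± 28.4 after VNS and 197.5 ± 32.7 in controls, and Egr1 48.6 ± 28.9 after VNS and 48.1 ± 18.6 in controls (SD, n = 4 each). Egr4, below Egr1 and Egr3 per kilobase in the hippocampus, was the highest of the 4 records in cortex, at 81.9 ± 13.2 CPM per kilobase after VNS and 92.0 ± 15.2 in controls (SD, n = 4 each). The Egr2 and Egr3 records had 2 and 23 counts over the 4 VNS libraries and 2 and 5 over the 4 controls.

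Whether the difference between VNS and control rats itself differed between the tissues was tested over all 15 libraries. The hippocampal minus the cortical log2 fold change was 1.08 for Egr1 (SE 0.84, adjusted p = 0.74), -0.60 for Egr3 (SE 1.73, adjusted p = 0.95) and 0.77 for Egr4 (SE 0.86, adjusted p = 0.83, edgeR quasi-likelihood test). Of these 3 members 0 passed and 0 had an unadjusted p under 0.05 with edgeR. In the same fit 0% of 7450 records passed and 8.12% had such a p. With DESeq2 or limma-voom 0 of the 3 passed. DESeq2 gave Egr4 no p, adjusted or not, so Egr4 was not tested with it. Without hippocampal control library 3, Egr4 passed at 3.15 (SE 0.44, adjusted p = 0.00012, edgeR), 1 of 3 members, where 3.11% of 7858 records passed. In that fit Egr1 was at 2.24 and did not pass (adjusted p = 0.062, edgeR). Because the cortex counts cannot be read as levels of the named genes, and the libraries of the tissues were made in different ways, these differences do not compare the response of a gene in the 2 tissues.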

How the data were processed

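Raw read counts per RefSeq transcript record were deposited by the authors for 8 cortex and 7 hippocampal libraries, without normalization. Per the file headers they were made with featureCounts 1.4.6-p2 on an rn5 RefSeq annotation, in cortex with a strand option and in hippocampus without one, so that hippocampal reads from either strand were counted together. Per the submitters' processing notes, FastQC 0.10.1, Trimmomatic, Bowtie2, SAMtools 0.1.19 and edgeR were also used, with no aligner settings recorded there. Reads common to several records of a gene were assigned to none of them.

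Records were given symbols from a RefSeq table (17339 of 18278). Counts were filtered with filterByExpr (minimum count 10, minimum total 15), scaled by TMM and tested with edgeR 4.0.16 (R 4.3.3, quasi-likelihood test, Benjamini-Hochberg adjustment over all records tested, threshold 0.05) within each tissue and for the interaction over 15 libraries. DESeq2 1.42.0, limma-voom (limma 3.58.1), other scalings, no filter, counts summed per symbol, counts without ribosomal and 7SL RNA records, and leaving out libraries were alternatives. The fits were tested on simulated data. CPM was TMM-scaled, and ratios between members used counts plus 0.5 per kilobase with exact two-sided permutation tests. Correlations used log2 CPM with a prior count of 2. Within a group, libraries were numbered in accession order.

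The members and all gene lists were chosen with earlier results of these data known. Named genes were the 4 members, Nab1 and Nab2, the 2 records with the smallest p in the hippocampal fit in each other list, and the 5 named records most correlated with each member. The cyclic AMP half-site was added to the motif search after the promoters had been read. Srf, Nr4a3 and Stat6 were named after their values were seen. Some genes that fall under this rule are not reported here.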

Additional observations from a re-analysis of the deposited data

How the results depend on the processing

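In the hippocampus, 17 records passed with DESeq2 in place of 0 with edgeR, and leaving out each library in turn gave 0 to 1377, the highest without control library 3. Leaving out each library gave log2 fold changes of 0.73 to 2.41 for Egr1, -1.35 to 2.87 for Egr2, 1.13 to 4.54 for Egr3 and 0.13 to 3.14 for Egr4. Limma-voom turned Egr2 to 1.05 and gave larger values than edgeR for Egr1 (1.41), Egr3 (3.03) and Egr4 (1.95). Without control libraries 1 and 2, Egr1 was at -0.0077 and Egr4 at -0.75. In the cortex 5 records passed without a filter, 0 with limma-voom and 0 to 4 when each library was left out, against 1 in the edgeR fit. Egr1 in cortex was at -0.19 with limma-voom and at -0.29 to 0.34 when each library was left out. Between the tissues 14 records passed with DESeq2, 1 with limma-voom and 0 to 244 when each library was left out. The difference for Egr3 was 0.63 with limma-voom and -2.39 to 2.16 when each library was left out, that for Egr4 was 0.25 to 3.15, and that for Egr1 was 0.63 (without control library 1) to 2.24 (without control library 3). Without control libraries 1 and 2 it was -0.060 for Egr1 and -0.62 for Egr4. For the ratios, leaving out each library gave -1.58 to 0.82 for Egr2 to Egr1, -0.28 to 0.88 for Egr4 to Egr1, 0.95 (without control library 2) to 2.22 for Egr3 to Egr1 and 0.055 (without control library 3) to 1.30 for Egr4 to Egr2. Without control libraries 1 and 2 the ratios were -2.42 for Egr2 to Egr1, 0.27 for Egr3 to Egr1, -0.68 for Egr4 to Egr1 and 1.74 for Egr4 to Egr2. The cause of these changes was not tested. The ratios of Egr4 to Egr3, Egr3 to Egr2, Egr3 to Egr1 and Egr4 to Egr2 kept their direction under every alternative run. For Egr4 to Egr3, leaving out libraries could not change the direction, because every VNS library lay below every control. Other scalings moved the median of all hippocampal records by less than 0.1. No paired analysis was possible because the labels give no replicate numbers shared between groups. Depth limits Egr2 most, with 6 to 720 counts in a hippocampal library, and the Egr records in cortex.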
